A study of Bos taurus with 21 samples.

Results

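Amino acid transporters were followed in the milk somatic cells of 21 Holstein cows. The genes were taken by symbol, as every gene of the count tables whose symbol starts with SLC1A, SLC3A, SLC6A, SLC7A, SLC36A, SLC38A or SLC43A. This gave 47 of the 13570 genes with a row. Of these, 28 passed the filter on low counts that left 9435 genes to be tested, and 16 had at least 10 counts in every cow and are described by name below. By family, the tested members were 7 of 11 SLC7A, 6 of 15 SLC6A, 5 of 8 SLC38A, 4 of 6 SLC1A, 3 of 3 SLC43A, 2 of 2 SLC3A and 1 of 2 SLC36A genes. The rule goes by symbol only. It also takes in SLC7A6OS, which is not a carrier, and carriers of other substrates such as creatine. All of them are called transporters or members below.

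Total RNA of cells from milk was sequenced for 9 cows of the high yielding group (HY) and 12 cows of the low yielding group (LY), 1 library per cow. The study formed these groups from a breeding index, and all cows were of the Holstein strain and of parity 2 to 4, without any treatment given in the labels. The HY cows were 41 to 268 days and the LY cows 52 to 270 days into lactation. The milk protein value of the labels, for which no unit is given, was 1.542 to 14.6 for HY cows and -13.2 to 1.268 for LY cows. The 2 groups therefore did not overlap in milk protein, and a relation with this trait cannot be told apart from a difference between the groups. Since the value can be negative, it is not a protein content of the milk that was sampled. It followed the milk yield value of the labels (n = 21, Pearson r = 0.967). The age of the animals is not in the labels.

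Carriers of the SLC families move amino acids across the plasma membrane and the lysosomal membrane. The mammary epithelium takes up large amounts of amino acids for the synthesis of casein, and leukocytes use the same families for growth, for glutathione synthesis and for recovering the products of lysosomal digestion. Milk somatic cells are a mixture of shed epithelial cells and leukocytes, so the transporters were set against measures of both.

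Each library held between 7878557 and 28541904 gene counts. The casein share, the percentage of these counts on CSN1S1, CSN1S2, CSN2 and CSN3, ranged from 0.0876% to 44.2%, a 504-fold range. All 10 pan-leukocyte markers had at least 10 counts in every cow, and their summed level was 3159 to 13080 counts scaled to the library size (CPM) in HY and 5316 to 10590 in LY. Of 10 neutrophil markers with a row, 8 were counted in every cow and CXCR1 was at 0 in all cows. The 10 macrophage and 11 T cell markers with a row were all counted in every cow, the T cell markers at summed levels of 87.1 to 1584 CPM. Casein share and leukocyte score, the mean log2 level of the 10 pan-leukocyte markers, moved in opposite directions (n = 21, Pearson r = -0.643 with a permutation p of 0.00136, Spearman rho = -0.778 with a permutation p of 6e-05, and adjusted p over 21 relations of 0.0143 and 0.00084). Without the 2 cows farthest from the median share, r was -0.614, and it was -0.602 within the 16 cows whose mapping rate did not stand apart. In bulk RNA, fewer cells of a type and less RNA per cell cannot be told apart. LY 2 stood apart for the transporters, being the cow with the lowest level for 10 of the 28 tested members (35.7%) and for 19.8% of all tested genes. In this cow SLC7A1, SLC1A1, SLC38A5, SLC3A1 and SLC6A4 had no count.

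Levels are given below as CPM after scaling with TMM factors, and they can be compared between cows but not between genes, since lengths were not used. Each slope is the change in log2 expression of a gene, from the quasi-likelihood test of edgeR, with p-values adjusted by Benjamini-Hochberg over all genes tested and a threshold of 0.05. For the casein share it is the change per doubling of the share, and for a cell type score it is the change per doubling of the mean marker level.

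Of the 28 transporters, 12 changed with the casein share, 3 rising and 9 falling. Over all genes tested, 24.4% changed, with 11.6% rising and 12.8% falling. The 3 that rose encode a glutamine carrier (SLC38A3), a relative of the cationic amino acid carriers (SLC7A4) and a carrier of large neutral amino acids (SLC43A1), and none of them had 10 counts in every cow. Of the 16 named members, 8 fell and 0 rose. At an unadjusted p under 0.05, 1 rose and 8 fell, against 16.1% and 19.5% of all genes. The naming rule removes genes that are scarce in cows of low casein share. In HY 1 the rising SLC38A3, SLC43A1 and SLC7A4 had 0, 0 and 1 counts. The rule also left out the falling SLC7A1, with 0 counts in LY 2. Neither the 0 rising nor the slopes of the 16 can therefore be set against all genes. Under the same rule 27% of 7146 genes were called, a share not split by direction. The median slope was -0.10 for the 16, -0.04 for the 28 and -0.01 for all genes. DESeq2 called 15 of the 28 members, 5 rising and 10 falling, and 28.2% of all genes. Without HY 1 edgeR called 7 members and 17.9% of all genes, and within the 16 cows it called 9 members and 11.9% of all genes. Within the 16 cows SLC7A5, SLC6A9, SLC6A6 and SLC7A1 were no longer past the threshold (adjusted p from 0.116 to 0.162).

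**Figure D1:**
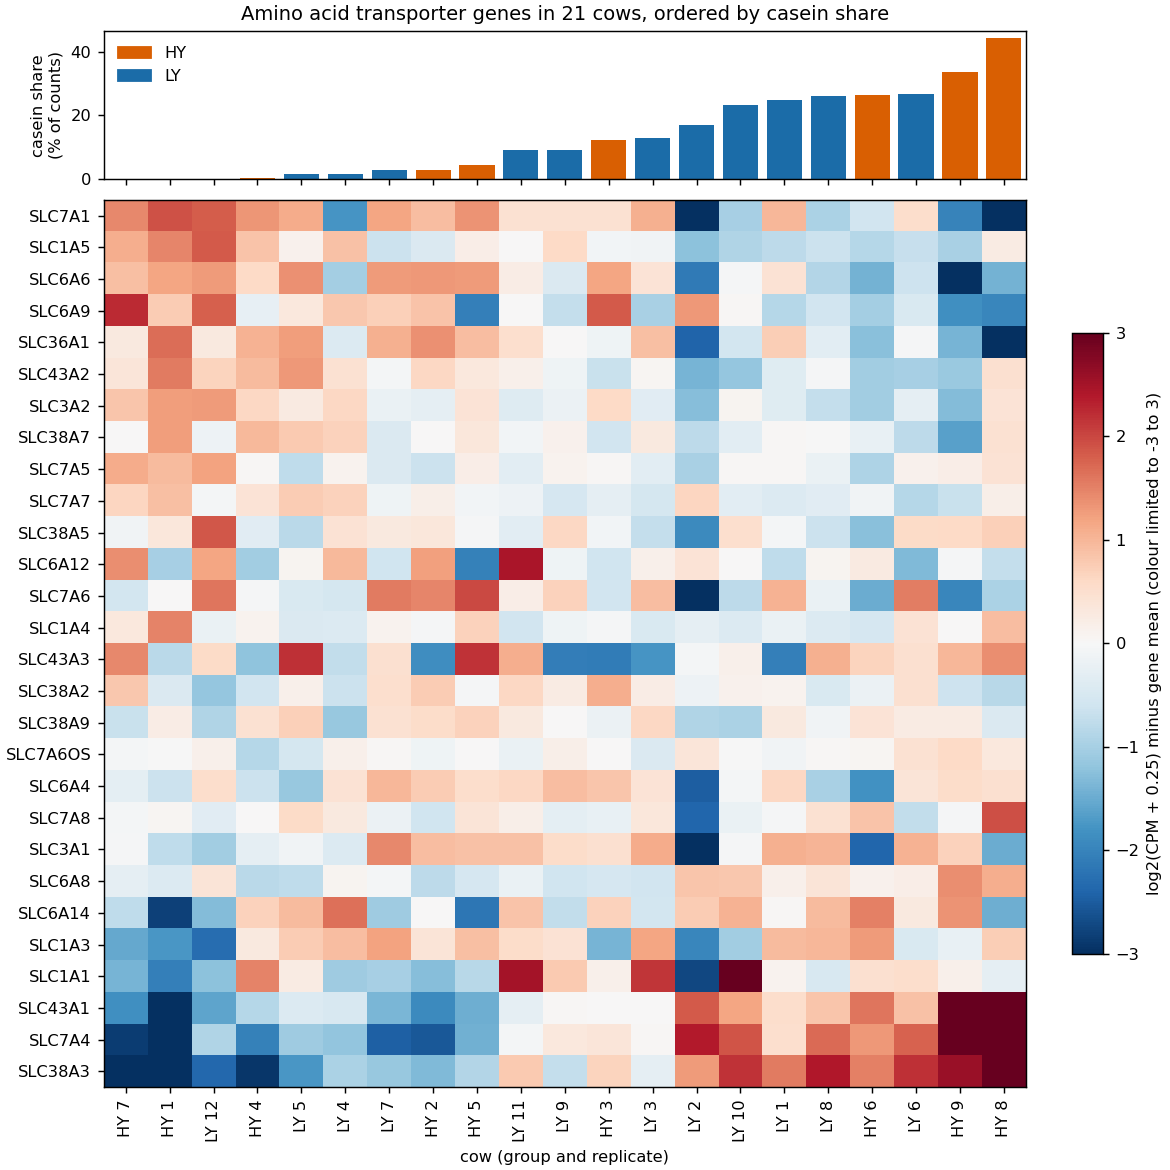
Levels of the 28 tested transporters, as log2(CPM + 0.25) minus the mean of the gene, in the 21 cows ordered from the lowest to the highest casein share, which the bars above give in percent of gene counts. SLC38A3, SLC7A4 and SLC43A1 in the lowest rows go from blue in the cows with little casein to red in those with much, and the column of LY 2 holds the lowest level of 10 genes.

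SLC38A3 encodes SNAT3, a sodium-coupled glutamine carrier known from liver, kidney and brain. It had no count in HY 1 and HY 7, the cows with the lowest casein shares, and reached 32.3 CPM in HY 8, the cow with the highest share. The median was 1.065 CPM in HY and 2.87 CPM in LY, where it ranged from 0.224 to 12.6 CPM. Its slope was 0.99 log2 units per doubling of the casein share (SE 0.082, adjusted p = 3.14e-09), so in this fit the gene changed nearly in proportion to the share. The slope stayed between 0.96 and 1.13 when any single cow was left out, and it was 1.13 within the 16 cows. Over all 11 alternatives apart from leaving out single cows, which include an epithelium score in place of the share, it ran from 0.69 to 1.57. The adjusted p was at most 2.13e-06 there. The near proportion therefore depends on the processing.

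SLC7A4 is related in sequence to the cationic amino acid transporters, although a transport activity has not been assigned to it with certainty. It ranged from 0.0490 CPM in HY 1 to 43.9 CPM in HY 8, with medians of 0.750 CPM in HY and 2.85 CPM in LY. Its slope was 0.72 (SE 0.108, adjusted p = 2.99e-05), and it was 0.93 (adjusted p = 2.52e-06) within the 16 cows. In LY 12, with a casein share of 0.164%, the gene was at 1.21 CPM, above the 0.0490 and 0.125 CPM of HY 1 and HY 7, the other cows of lowest share. Without LY 12 the slope was 0.9965, the highest value on leaving out a cow.

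SLC43A1 encodes LAT3, a carrier of leucine and other large neutral amino acids that needs no heavy chain. It had no count in HY 1 and was highest in HY 9, at 22.2 CPM, and HY 8, at 18.3 CPM, and the LY cows ranged from 0.494 to 7.67 CPM with a median of 2.005. Its slope was 0.62 (SE 0.098, adjusted p = 5.89e-05), and 0.63 within the 16 cows. These 3 genes also had slopes on the casein share past the threshold when the leukocyte score was in the fit, at 0.97 for SLC38A3, 0.59 for SLC7A4 and 0.43 for SLC43A1.

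**Figure D2:**
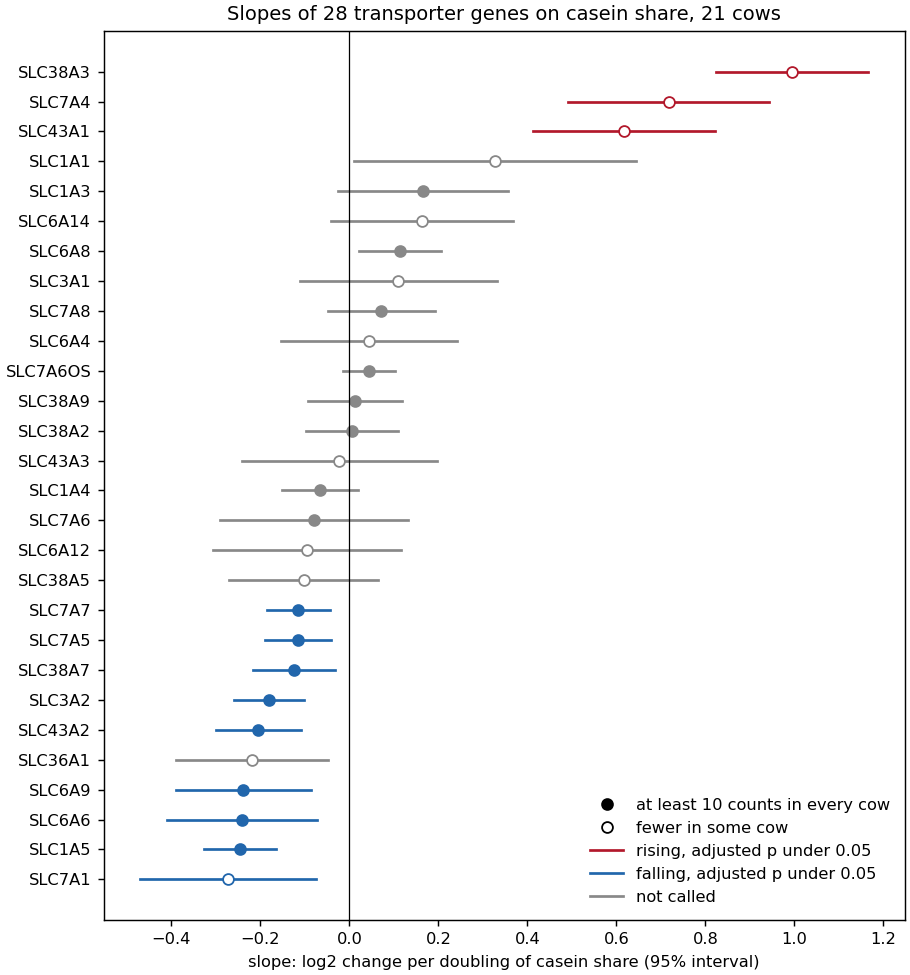
Slopes of the 28 tested transporters on the casein share, in log2 units per doubling of the share, with 95% intervals from edgeR and 21 cows. The 3 rising genes lie between 0.62 and 0.99 and the 9 falling genes between -0.27 and -0.12.

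SLC3A2 encodes the heavy chain CD98, which carries several SLC7 light chains to the cell surface. It was at 58.7 to 348 CPM in the HY cows (median 194) and at 59.8 to 355 CPM in the LY cows (median 124.) The highest levels were in LY 12 and HY 1, cows of low casein share, and the lowest in HY 9 and LY 2. It fell by 0.18 per doubling of the casein share (SE 0.038, adjusted p = 0.00141).

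The light chain SLC7A5 (LAT1), the exchanger of large neutral amino acids, was at 18.7 to 76.9 CPM in the HY cows (median 41.25) and at 18.2 to 82.7 CPM in the LY cows (median 33.8.) It fell by 0.12 per doubling (adjusted p = 0.0212), a call that was lost without HY 1, without HY 7 or without LY 12 (slope -0.09, adjusted p = 0.102 without the last). SLC7A7 (y+LAT1), which exports cationic amino acids in exchange for neutral ones, was at 140 to 416 CPM in the HY cows (median 250.0) and at 122 to 378 CPM in the LY cows (median 187.5.) It fell by 0.12 per doubling as well (adjusted p = 0.016), with an adjusted p up to 0.0644 when HY 1 or HY 9 was left out.

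SLC7A8 (LAT2), another light chain for neutral amino acids, was at 6.51 to 38.9 CPM in the HY cows (median 10.2) and at 1.72 to 15.1 CPM in the LY cows (median 9.35.) Its highest level was in HY 8 and its lowest in LY 2. The slope was 0.07 (95% interval -0.05 to 0.19) and did not pass the test.

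SLC1A5 encodes ASCT2, an exchanger of glutamine and small neutral amino acids. It was at 122 to 670 CPM in the HY cows (median 278) and at 102.5 to 871 CPM in the LY cows (median 190.) The 3 cows of lowest casein share, HY 7, HY 1 and LY 12, had the 3 highest levels, 515, 670 and 871 CPM. It fell by 0.25 per doubling (SE 0.038, adjusted p = 5.13e-05), and with the leukocyte score in the fit the slope was -0.22 (adjusted p = 0.0147), which made it the falling member that remained called there.

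SLC1A4 (ASCT1), which exchanges serine, alanine and cysteine, ranged from 12.5 to 52.6 CPM over the 21 cows and had a slope of -0.07 (95% interval -0.15 to 0.02). SLC1A3 (EAAT1), a glutamate carrier, ranged from 2.92 CPM in LY 12 to 37.3 CPM in HY 6 and had a slope of 0.16 (95% interval -0.03 to 0.36). Neither passed the test on the casein share.

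SLC43A2 encodes LAT4, a uniporter for branched-chain amino acids, phenylalanine and methionine. It was at 22.2 to 142 CPM in the HY cows (median 61.9) and at 18.1 to 118.5 CPM in the LY cows (median 46.4.) It fell by 0.20 per doubling (SE 0.045, adjusted p = 0.00222), whereas its relative SLC43A1 rose. The slopes of SLC43A1 and SLC43A2 have 95% intervals of 0.41 to 0.82 and -0.30 to -0.11, which do not overlap.

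**Figure D3:**
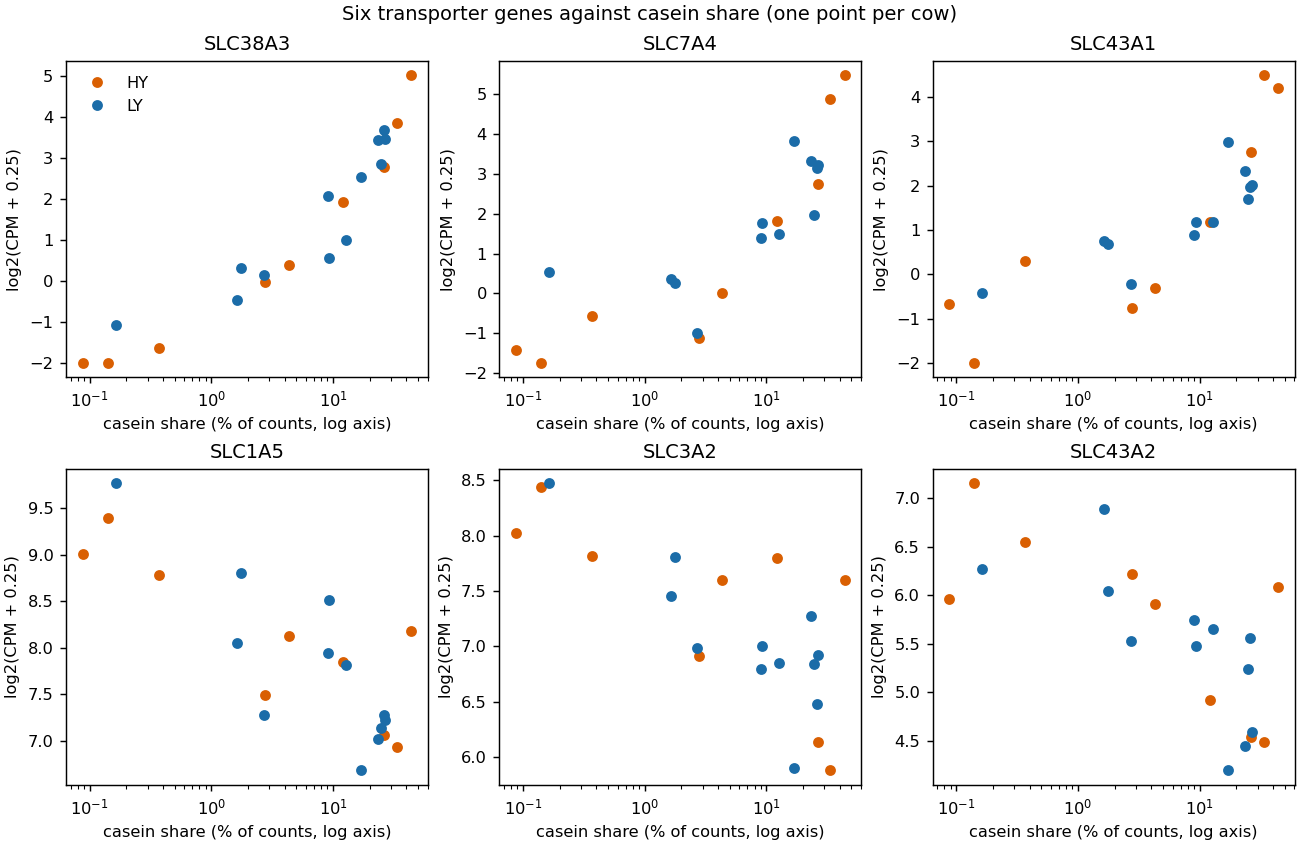
Levels of 6 transporters as log2(CPM + 0.25) against the casein share on a log axis, with 1 point per cow, HY in orange and LY in blue. The upper 3 genes rose with the share, at 0.62 to 0.99 log2 units per doubling, and the lower 3 fell by 0.18 to 0.25.

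SLC38A7 (SNAT7), which exports glutamine from lysosomes, was at 5.89 to 45.0 CPM in the HY cows (median 18.8) and at 10.65 to 32.1 CPM in the LY cows (median 18.0.) It fell by 0.12 per doubling (adjusted p = 0.0407), but the call was lost on leaving out any of 12 cows. SLC38A2 (SNAT2), a carrier of small neutral amino acids that is induced by amino acid shortage, ranged from 156 CPM in LY 12 to 743 CPM in HY 3. SLC38A9, the arginine sensor of the lysosome, ranged from 6.12 to 22.7 CPM. The slopes of SLC38A2 (0.01, 95% interval -0.10 to 0.11) and SLC38A9 (0.01, 95% interval -0.09 to 0.12) were close to 0.

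SLC6A9 (GLYT1) carries glycine. It was at 30.1 to 594 CPM in the HY cows (median 106) and at 63.9 to 432 CPM in the LY cows (median 127.5.) It fell by 0.24 per doubling (adjusted p = 0.0189), and not without HY 7 or LY 12, the cows with the highest levels in their groups (adjusted p up to 0.1).

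The remaining named SLC6 members carry other substrates. SLC6A6, the taurine carrier, was at 2.16 to 68.4 CPM in the HY cows (median 51.8) and at 6.18 to 71.5 CPM in the LY cows (median 29.5.) It fell by 0.24 per doubling (adjusted p = 0.0309), with the call lost on leaving out any of 6 cows. SLC6A8, the creatine carrier, was at 8.51 to 40.5 CPM in the HY cows (median 11.4) and at 8.81 to 27.5 CPM in the LY cows (median 16.6), and its slope of 0.11 had an adjusted p of 0.0629.

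SLC7A6OS is counted under the rule for its symbol but is the opposite-strand neighbour of SLC7A6 and not a carrier. It varied least among the 28, with an SD of 0.33 log2 units over the 21 cows and a range of 16.9 to 46.2 CPM. Whether the authors' counting used strand is not given in the sources used here, so reads in the overlap of this gene and SLC7A6 are uncertain. SLC1A1 and SLC36A1 likewise overlap counted genes, SPATA6L and FAT2, in the RefSeq table. The slope of SLC7A6OS on the casein share was 0.04 (95% interval -0.02 to 0.10).

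Of the 12 tested members with fewer than 10 counts in some cow, SLC7A1 (CAT1), the arginine and lysine carrier, also fell with the casein share, by 0.27 per doubling (adjusted p = 0.0367). It ranged from 0 CPM in LY 2 and 0.936 CPM in HY 8 to 42.3 CPM in HY 1, and the call was lost on leaving out any of 7 cows. The 8 others (SLC1A1, SLC36A1, SLC38A5, SLC3A1, SLC43A3, SLC6A12, SLC6A14 and SLC6A4) did not pass the test. The lowest adjusted p among them was 0.0519 for SLC36A1, the proton-coupled carrier of the lysosome.

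With the leukocyte score in the same fit, 4 of the 28 members changed with the casein share in place of 12, and 4.84% of all genes in place of 24.4%. The slopes of the falling members differed in how they moved. SLC3A2 (-0.11, adjusted p = 0.193), SLC6A6 (-0.07, adjusted p = 0.709) and SLC6A9 (-0.11, adjusted p = 0.437) were closer to 0 in this fit. SLC43A2 (-0.22, adjusted p = 0.0623), SLC7A5 (-0.13, adjusted p = 0.138) and SLC7A7 (-0.13, adjusted p = 0.126) had slopes as large as before with wider errors. SLC7A1 (-0.18, adjusted p = 0.478) was closer to 0 as well. The slope of SLC38A7 (-0.11, adjusted p = 0.365) changed little, with a wider error. The leukocyte score followed the neutrophil score (Pearson r = 0.732) more than the macrophage score (r = 0.351, permutation p = 0.12). The casein share also fell with the macrophage score (n = 21, r = -0.617, permutation p = 0.003, adjusted p = 0.021). No fit held both of these, so the part of the macrophage score in the slopes on the casein share was not tested.

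The leukocyte score itself gave 9 of the 28 members, 5 rising and 4 falling, against 29.5% of all genes (15.2% rising, 14.3% falling). The rising members were SLC3A2 at 1.12 log2 units per doubling of the mean marker level (SE 0.223, adjusted p = 0.000709), SLC6A6 at 2.08 (adjusted p = 0.00117), SLC6A9 at 1.73 (adjusted p = 0.0016), SLC1A5 at 1.14 (adjusted p = 0.00511) and SLC7A1 at 1.75 (adjusted p = 0.0406). The falling members were SLC43A1 at -2.52 (adjusted p = 0.00105), SLC7A4 at -2.63 (adjusted p = 0.00651), SLC38A3 at -2.38 (adjusted p = 0.0301) and the creatine carrier SLC6A8 at -0.76 (adjusted p = 0.0118). SLC7A5, SLC7A7, SLC43A2 and SLC38A7, which fell with the casein share, did not pass the test here. The call of SLC7A1 was lost on leaving out any of 8 cows, that of SLC38A3 without HY 8, LY 8 or LY 12, and that of SLC6A8 without HY 9 (adjusted p up to 0.161, 0.0718 and 0.133). Within the 16 cows SLC38A3 (-1.92, adjusted p = 0.152) and SLC7A1 (1.71, adjusted p = 0.135) were not called.

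On the neutrophil score, 1 of 28 members changed, against 9.46% of all genes (7.29% rising, 2.17% falling). This was SLC6A9, the glycine carrier, at 1.68 log2 units per doubling of the mean marker level (SE 0.263, adjusted p = 0.000146). It was at 453 CPM in HY 3, the cow with the highest neutrophil score, and at 34.8 and 30.1 CPM in HY 9 and HY 5, the cows with the lowest scores. The slope was 1.69 with the macrophage and T cell scores in the fit and 1.59 within the 16 cows, and on leaving out a cow it was 1.53 to 1.91 with an adjusted p of at most 0.000881. In the fit with the 3 scores, SLC3A2 (0.56, adjusted p = 0.0115), SLC6A6 (0.88, adjusted p = 0.0195) and SLC7A7 (0.39, adjusted p = 0.0186) also rose with the neutrophil score, which makes 4 members against 17.4% of all genes.

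On the macrophage score, 5 of 28 members changed, 4 rising and 1 falling, against 16.8% of all genes (8.64% rising, 8.12% falling). The number was 2 without HY 1, 3 without HY 9, 8 without HY 7 and 9 without HY 3 or HY 8, and the share of all genes in these fits was 9.1%, 10.7%, 17.4%, 18.7% and 20.6%. SLC43A2 rose by 1.20 per doubling (SE 0.134, adjusted p = 1.39e-05). It was at 142 and 118.5 CPM in HY 1 and LY 5, the cows with the highest macrophage scores but in the opposite order, and at 22.2 CPM in HY 9, the cow with the lowest. SLC38A7, the lysosomal glutamine exporter, rose by 0.92 (SE 0.134, adjusted p = 0.000211), from 5.89 CPM in HY 9 to 45.0 CPM in HY 1. Both calls held on leaving out any single cow, with an adjusted p of at most 0.000181 for SLC43A2 and 0.00213 for SLC38A7, and the slopes within the 16 cows were 1.15 and 0.92.

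The other members called on the macrophage score were SLC1A5 at 0.93 (adjusted p = 0.0144), the lysosomal carrier SLC36A1 at 1.05 (adjusted p = 0.0285) and SLC6A8 at -0.63 (adjusted p = 0.0343). SLC1A5 lost its call without HY 1 (adjusted p = 0.0571), and the other 2 genes lost theirs on leaving out any of 5 cows. With the neutrophil and T cell scores in the fit, 13 of 28 members changed with the macrophage score, 8 rising and 5 falling, against 25.8% of all genes. They included SLC7A7 at 0.58 (adjusted p = 0.00147), SLC3A2 at 0.76 (adjusted p = 0.00213) and SLC6A6 at 1.34 (adjusted p = 0.00205), which rose with the neutrophil score in that fit as well.

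On the T cell score, 1 of 28 members changed, against 6.75% of all genes (3.03% rising, 3.72% falling), and 2 changed without LY 5, LY 6 or HY 7 (8.68% to 11.4% of all genes). SLC7A6 (y+LAT2), the light chain that is the closest relative of SLC7A7, rose by 0.81 per doubling (SE 0.139, adjusted p = 0.000816). It was at 4.32 to 69.6 CPM in the HY cows (median 11.9) and at 1.37 to 54.1 CPM in the LY cows (median 24.3.) The lowest level was in LY 2 and the next in HY 9, and without LY 2 or any other cow the slope was 0.76 to 0.94 with an adjusted p of at most 0.00379. The slope was 0.79 within the 16 cows (adjusted p = 0.0291). Its relative SLC7A7 had a slope of -0.17 (95% interval -0.36 to 0.03), and in the fit with the 3 scores SLC7A7 fell by 0.20 (adjusted p = 0.0431) while SLC7A6 rose by 0.84. The opposite-strand neighbour SLC7A6OS had a slope of 0.00 (95% interval -0.13 to 0.14).

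**Figure D4:**
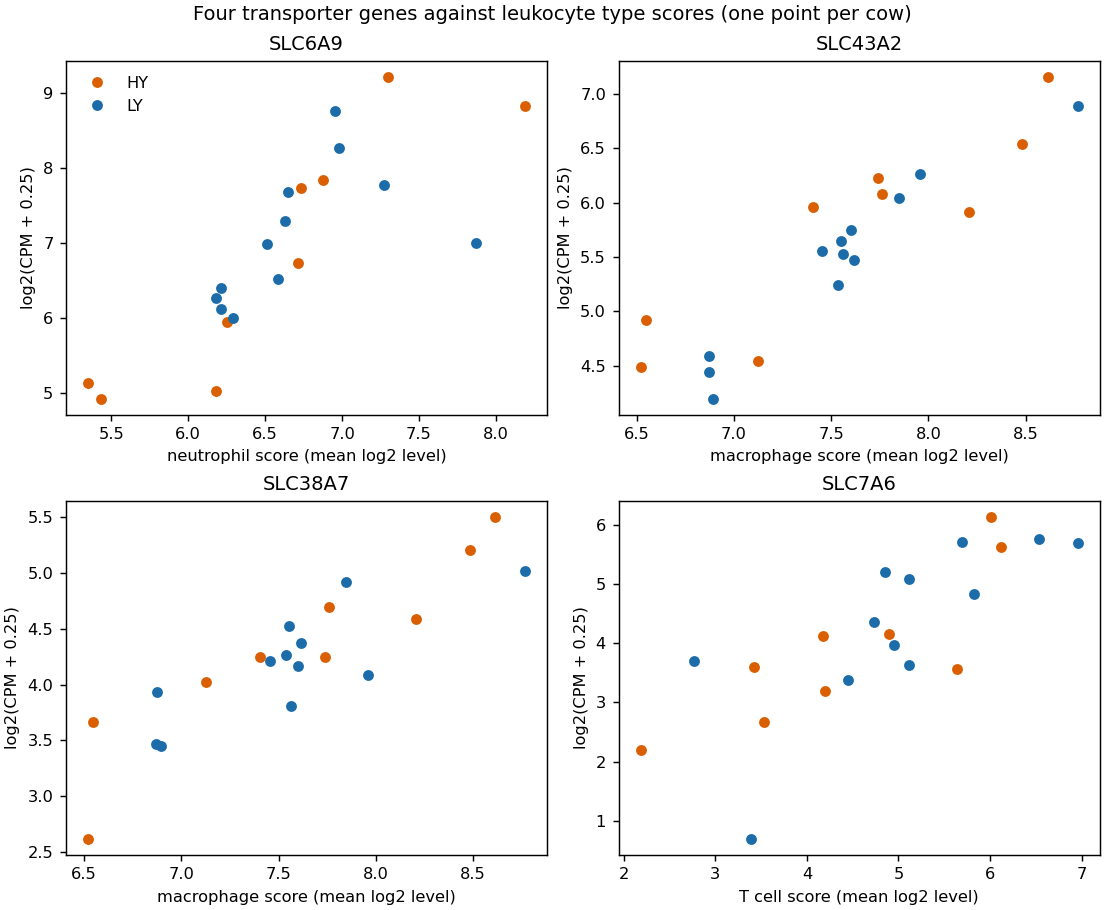
Levels of 4 transporters as log2(CPM + 0.25) against the score of a leukocyte type, the mean log2 level of its markers, with 1 point per cow, HY in orange and LY in blue. SLC6A9 rose by 1.68 per doubling of the neutrophil markers, SLC43A2 by 1.20 and SLC38A7 by 0.92 per doubling of the macrophage markers, and SLC7A6 by 0.81 per doubling of the T cell markers.

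Since CD98 pairs with SLC7A5, SLC7A6, SLC7A7 and SLC7A8 among other light chains, the members were also fitted on the level of SLC3A2 itself, a fit added after the data had been seen. Of the other 27 tested members, 8 changed with SLC3A2, 7 rising and 1 falling, against 29.4% of all genes. Of the 9434 other genes tested, 1678 rose and 1092 fell. Without HY 1 or HY 6, 5 members changed (24.1% and 25.5% of all genes). Of these 4 light chains, SLC7A5 rose, by 0.56 log2 units per doubling of SLC3A2 (SE 0.124, adjusted p = 0.00167). SLC7A7 had a slope of 0.28 (95% interval -0.00 to 0.57), SLC7A6 of 0.48 (95% interval -0.40 to 1.37) and SLC7A8 of 0.17 (95% interval -0.35 to 0.69), and none of these passed the test.

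The other members called on SLC3A2 need no heavy chain, and the number of members called was near the share of all genes. SLC1A5 rose by 1.02 (SE 0.128, adjusted p = 1.42e-05), SLC43A2 by 0.82 (adjusted p = 0.00151), SLC38A7 by 0.59 (adjusted p = 0.00755), SLC6A6 by 1.08 (adjusted p = 0.0149), SLC1A4 by 0.41 (adjusted p = 0.0343) and SLC7A1 by 1.09 (adjusted p = 0.047). SLC43A1 fell by 1.27 (adjusted p = 0.0495). The calls of SLC43A1 and SLC7A1 were lost on leaving out any of 16 and 15 cows. That of SLC1A4 was lost without HY 1 (0.22, adjusted p = 0.308), HY 6 or HY 8 and with DESeq2 (adjusted p = 0.054), and that of SLC6A6 without HY 9 (adjusted p = 0.0559). SLC3A2, SLC1A5, SLC6A6 and SLC7A1 all rose with the leukocyte score as well, and SLC43A1 fell with it. The part of that score in these slopes was not tested.

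A change of a transporter with the milk protein value of the labels was not detected. By edgeR, 0 of the 28 members and 0% of all genes passed the threshold, and 0 members against 0.996% of all genes had an unadjusted p under 0.05. DESeq2 called 0 members and 0% of all genes, with 1 member and 184 of the 9435 genes at an unadjusted p under 0.05. Among the named members, the slopes per 10 units of milk protein ran from -0.18 for SLC1A3 (SE 0.297) to 0.47 for SLC6A6 (SE 0.344). SLC38A3, which had the largest slope on the casein share, had a slope of 0.04 (SE 0.753). The casein share itself was not detectably related to this value, which is not a protein content of the sampled milk (n = 21, Pearson r = -0.276 with a permutation p of 0.226, Spearman rho = -0.192 with a permutation p of 0.404, and adjusted p of 0.431 and 0.707). This r was -0.19 without the 2 cows farthest from the median share and -0.33 within the 16 cows.

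Between HY and LY, 0 of the 28 members and 0% of all genes passed the threshold by edgeR, and 1 member against 1.72% of all genes had an unadjusted p under 0.05. This was the serine and alanine exchanger SLC1A4, at 13.0 to 52.6 CPM in HY with a median of 19.9 and at 12.5 to 25.4 CPM in LY with a median of 14.7. The groups overlapped, and the difference of HY minus LY was 0.67 log2 units (SE 0.219, unadjusted p = 0.00523, adjusted p = 1), or 0.47 without HY 1, the highest cow. DESeq2 called 0 members and 0.0106% of all genes. For the other 15 named members the differences ran from -0.32 for SLC7A6 to 0.52 for SLC7A8, both smaller than the SD of the gene within the HY group.

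**Figure D5:**
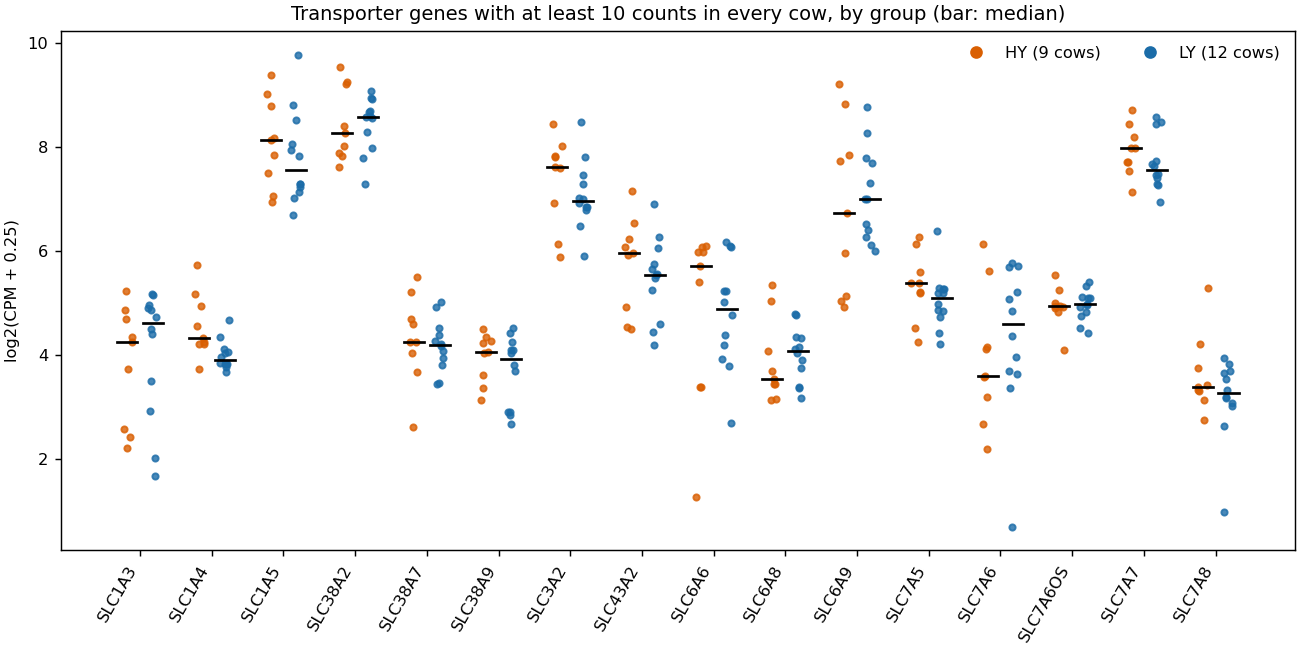
Levels of the 16 transporters with at least 10 counts in every cow, as log2(CPM + 0.25), with 1 point per cow, 9 HY cows in orange and 12 LY cows in blue, and a bar at the median of each group. The groups overlap for every gene, and 0 of the 16 passed the test between HY and LY.

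With lactation period, edgeR called 0 of the 28 members and 0% of all genes. An unadjusted p under 0.05 was found for 4 members, against 24% of all genes. Per 100 days these were the glutamate carrier SLC1A1 at 1.19 (unadjusted p = 0.0195), SLC7A6 at 0.74 (unadjusted p = 0.0206), SLC43A1 at -1.08 (unadjusted p = 0.0249) and SLC7A4 at -1.19 (unadjusted p = 0.0275), with adjusted p from 0.139 to 0.163. With the casein share in the fit the slopes of SLC43A1 and SLC7A4 were -0.47 (adjusted p = 0.373) and -0.56 (adjusted p = 0.325). DESeq2 called 1 member and 9.26% of all genes. The member was SLC1A1 at 1.24 (adjusted p = 0.047), which was at 22.95 CPM in LY 10 and at or below 9.02 CPM in the other cows. Without LY 10 its slope by edgeR was 0.76. Without the 2 cows farthest from the median period, SLC43A1 (-1.35, adjusted p = 0.0342) and SLC7A6 (1.22, adjusted p = 0.041) passed the test, 2 of 28 members against 10.5% of all genes.

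The 19 members under the filter had at most 124 counts in any cow, which SLC7A10 reached. SLC1A6, SLC6A18, SLC6A7 and SLC7A3 had no count in any cow. The others included SLC1A7, SLC36A2, SLC38A11, SLC38A4, SLC38A8, SLC6A11, SLC6A13, SLC6A15, SLC6A17, SLC6A2, SLC6A20, SLC7A14 and SLC7A9, with at most 39 counts each. Over the 28 tested members the median SD was 0.998 log2 units between cows, against 0.71 over all tested genes. Together the 47 members held 0.0452% to 0.293% of the gene counts of a cow, with a median of 0.183%.

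Genes that work beside the carriers were followed as 3 lists, to be read against the shares of all genes called on each measure: 24.4% on the casein share, 29.5% on the leukocyte score, 9.46% on the neutrophil score, 16.8% on the macrophage score, 6.75% on the T cell score and 29.4% on the level of SLC3A2. Of 18 tested targets of ATF4, the factor of the amino acid starvation response, 1 rose and 2 fell with the casein share. CTH, which makes cysteine, rose by 0.15, and the leucine sensor SESN2 and the serine hydroxymethyltransferase SHMT2 fell by 0.30 and 0.23. ATF4 itself had a slope of -0.05 and the asparagine synthetase ASNS one of 0.04, and neither passed the test. With the leukocyte score 3 rose (SESN2 2.25, SHMT2 1.13, ATF3 0.70) and 3 fell (PSAT1 -0.79, ASNS -0.62, PSPH -0.59), the last 3 being enzymes of serine and asparagine synthesis.

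SHMT2, which makes glycine from serine in mitochondria, rose with the macrophage score by 1.21 (adjusted p = 8.06e-05), the only ATF4 target of the 18 called on that score. On the neutrophil score, with which the glycine carrier SLC6A9 rose, 4 of the 18 rose and 2 fell, against 7.29% and 2.17% of all genes, with SESN2 at 1.48, DDIT3 at 0.84, ATF4 at 0.65 and ATF3 at 0.55 above 0 and PSAT1 at -0.51 and PSPH at -0.51 below. On the T cell score 0 of the 18 were called by edgeR, with 5 at an unadjusted p under 0.05, against 24.3% of all genes.

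Of 16 tested genes of lysosomal amino acid sensing, the GTPase RHEB rose by 0.14 with the casein share and FLCN, RPTOR and TFEB fell by 0.16, 0.15 and 0.15. With the leukocyte score 3 rose (FLCN 1.10, TFEB 0.83, RRAGC 0.70) and 2 fell (RHEB -0.96, NPRL2 -0.59). On the macrophage score, RPTOR rose by 0.88 and RRAGD fell by 0.73. FLCN rose by 0.90 and RRAGB fell by 0.55 with the neutrophil score, and LAMTOR2 fell by 0.44 with the T cell score. Of the 7 genes called on the level of SLC3A2, TFEB, a factor that drives lysosomal genes, had the lowest adjusted p (0.76 log2 units, adjusted p = 8.53e-05).

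Of 10 genes of glutathione synthesis and use, 2 rose with the casein share, the glutathione-degrading CHAC2 by 0.26 and the gamma-glutamyltransferase GGT1 by 0.39. GGT5 fell by 0.34 and the thioredoxin reductase TXNRD1 by 0.11. With the leukocyte score GCLC (1.29) and TXNRD1 (0.50) rose and GGT1 (-2.27), CHAC2 (-1.13) and the synthetase GSS (-0.99) fell. CHAC2 fell by 1.03 with the macrophage score and GSR by 0.25 with the T cell score, and 0 of 10 were called on the neutrophil score by edgeR, with 1 at an unadjusted p under 0.05, against 24.2% of all genes.

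On milk protein, lactation period and between HY and LY, 0 genes of the 3 lists were called by edgeR. At an unadjusted p under 0.05, the ATF4 targets gave 2, 2 and 2 genes on these 3 measures, the lysosomal list 0, 5 and 0, and the glutathione list 0, 5 and 1, against 0.996%, 24% and 1.72% of all genes.

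Some markers of mammary epithelium and of B cells also changed with the casein share. Of 12 mammary epithelial markers 9 rose and 0 fell, with a median slope of 0.42. Of 5 tested B cell markers 0 rose, 2 fell and 3 were not called. Over all genes tested, 11.6% rose and 12.8% fell. The epithelial list includes the milk genes LALBA and BTN1A1, and epithelium makes the casein itself, so the rise of these markers is not separate from the share. The part of these cells in the slopes of the transporters was not tested.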

How the data were processed

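For each cow the authors deposited the raw counts of reads on genes, which were not normalised. Per the study's methods and the submitters' processing notes, reads were trimmed with Trimmomatic, mapped to bosTau7 with TopHat2 and Bowtie2 and counted with HTSeq. Versions and the strand setting are not given in the sources used here. The 5 summary rows of HTSeq and a row without a gene name (0.036 to 0.151% of gene counts) were left out.

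Genes were filtered with filterByExpr (minimum count 10, by group), scaled with TMM factors and fitted over all 21 cows with the quasi-likelihood F test of edgeR 4.0.16 (R 4.3.3), 1 covariate at a time, with Benjamini-Hochberg adjustment over 9435 genes. SE was taken as the slope divided by the square root of F. Levels are TMM scaled CPM, and log2 values used a pseudocount of 0.25. Scores are the mean of such log2 values over fixed markers. Permutation tests of correlations used 100000 resamples, two-sided. DESeq2 1.42.0 and limma 3.58.1, other scalings and filters, covariates and leaving out each cow were alternatives, and the 16 cows are those without a mapping rate that stood apart in the study's own table (5 cows, 1 HY and 4 LY, did). The procedure was tested on simulated data in which far fewer genes changed than were called here on the casein share. That test therefore does not cover a change of so many genes.

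Members that reached 10 counts in each library were named, with values, and others were listed by symbol, with values mainly where they passed a test. A single member under the filter is not reported here. The members and lists were chosen with earlier results of these data known. The fit on SLC3A2 was added after the data had been seen. P-values measure the spread between cows. Every pair of libraries differed by more than sampling noise (lowest chi-square per degree of freedom 33.7). All 47 symbols matched the gene table of the ARS-UCD2.0 assembly, used for overlaps between genes only, since the build differs.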

Additional observations from a re-analysis of the deposited data

Results flagged for a closer look

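SLC7A6OS in HY 4 was at 16.9 CPM, apart from the other HY cows, whose next level was 28 CPM. The gap was 0.502 of the range of the 9 cows. This is past Dixon's critical value at 95% for that number of cows. By chance, about 1 in 20 groups would be marked in this way. All 28 tested members were examined in HY and 1 was marked, which is not beyond that rate.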

How the results depend on the processing

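No paired analysis was possible because the labels give no pairing of HY with LY cows, and each cow is a library of its own. The number of members called moved by more than 1.5 times under these alternatives, and the cause was not tested. Percentages in brackets are the share of all genes called in the same fit. On the casein share, 12 (24.4%) became 7 (15.7%) without the 2 cows farthest from the median share and 4 (4.84%) with the leukocyte score as covariate. On the neutrophil score, 1 (9.46%) became 2 (13.1%) with DESeq2, 2 (7.13%) without a filter and 4 (17.4%) with the other 2 type scores. On the macrophage score, 5 (16.8%) became 9 (23.8%) with DESeq2, 10 (18.6%) with limma and 3 (7.03%) without the 2 farthest cows. It became 13 (19.2%) with parity and lactation period and 13 (25.8%) with the other scores. On the T cell score, 1 (6.75%) became 2 (7.46%) with the other scores. On lactation period, 0 (0%) became 1 (9.26%) with DESeq2 and 2 (10.5%) without the 2 farthest cows. Leaving out each cow gave 7 to 13 members on the casein share (7 without HY 1), with 16.2% to 27.4% of all genes called. On the leukocyte score it gave 7 to 12 members and 18.8% to 30.6% of all genes. The neutrophil score had 1 member in each such fit and 7.05% to 11.6% of all genes. The macrophage score had 2 to 9 members and 9.1% to 20.6% of all genes. These were 2 without HY 1, 3 without HY 9, 8 without HY 7, and 9 without HY 3 or HY 8. The T cell score had 1 to 2 members (2 without LY 5, LY 6 or HY 7) and 1.79% to 11.4% of all genes. SLC3A2 had 5 to 10 (5 without HY 1 or HY 6) and 22.6% to 33.1% of all genes. Lactation period had 0 members and 0% to 4.5% of all genes. Milk protein and HY against LY had 0 members and 0% of all genes. Over 41 slopes of single genes and 1238 comparisons with an alternative, 1107 kept direction and side of the threshold, 128 kept the direction only, 3 passed the threshold newly and none changed sign. Most of these comparisons leave out only 1 cow and so share nearly all data with the main fit. The 41 include a few slopes that were not called in the main fit. Of the 41 slopes, 19 kept direction and side in every alternative. Over all genes, lactation period gave 0 calls by edgeR and 874 by DESeq2. Depth limits the members with few counts, such as SLC38A5, which had 0 to 70 counts per cow with a median of 9.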
